A study of Homo sapiens with 6 samples.

Results

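The genes described are 10 intermediate filament genes: the keratins KRT7, KRT8, KRT18, KRT19, KRT80 and KRT81, the vimentin gene VIM, the nestin gene NES, the heavy neurofilament gene NEFH and the synemin gene SYNM. They were picked by name, each matched 1 of the 64253 Ensembl identifiers of the deposited count table, and 8 of the 10 had enough reads to be tested. They were picked with the difference between the groups in view, so their levels and fold changes are given as a description and carry no p-value. The cells were NCI-H1299, an established human line labelled as lung adenocarcinoma. MTSS1 overexpressing cells carried a plasmid for mCherry-tagged MTSS1, a membrane-bending scaffold protein that binds actin, and had gone through hygromycin selection and flow sorting (3 libraries). Wild type cells were the same line, with no plasmid named in the labels (3 libraries). The protocol names HEK293T cells in connection with the transfection. The labels name no library with a control plasmid, so MTSS1 itself, the tag, the selection and the sort cannot be told apart, and nothing says whether the replicates were separate cultures or the sorted cells 1 clone.

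Intermediate filaments are rope-like polymers that give cells mechanical strength and hold organelles in place. Keratins are made in pairs: each filament needs a type I chain (KRT18 and KRT19 here) and a type II chain (KRT7, KRT8, KRT80 and KRT81), and a chain without its partner is unstable. The pair KRT8 and KRT18 is the first to appear in simple epithelia such as that of the lung. Vimentin, of type III, forms filaments with itself and is the usual filament protein of mesenchymal cells, and many carcinoma lines express it beside keratins. Nestin, NEFH and synemin, of type IV, build on other filaments and are best known from neural and muscle cells.

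The 4 type II keratin genes and KRT18 lie together on the long arm of chromosome 12 (GRCh38, gene spans of GENCODE release 29). KRT80 spans chr12:52168996-52192000, KRT7 chr12:52232520-52252186, KRT81 chr12:52285913-52291534, KRT8 chr12:52897187-52949954 and KRT18 chr12:52948871-52952901. KRT8 and KRT18 run on opposite strands, and their annotated spans overlap by 1084 bases. The other members are dispersed: KRT19 at chr17:41523617-41528308, VIM at chr10:17228259-17237593, NES at chr1:156668763-156677397, NEFH at chr22:29480230-29491390 and SYNM at chr15:99098217-99135593.

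Total counts were 13883380, 25741708 and 25253250 in the overexpressing libraries 1 to 3 and 19018751, 29479453 and 26736187 in the wild type libraries 1 to 3, and levels are CPM (reads of a gene divided by the library total and scaled up) after TMM scaling of library sizes. MTSS1 itself, which checks the group labels, stood at 549.8, 544 and 568 CPM with MTSS1 overexpressed, against 24.2, 17.9 and 24.3 CPM in wild type. The libraries numbered 1 of both groups stood apart from the other 4 on the second principal component (31.6% of the variance), at 23.2 and 24.9 against values of -19.3 to -4.46. Markers of differentiated lung epithelium were almost absent: 5 of 9 had no read in any library, among them the surfactant genes SFTPB, SFTPA1, SFTPA2 and SFTPD, and the 9 summed to 2.35 to 3.16 CPM in overexpressing and 1.16 to 1.80 CPM in wild type cells. Among them the lung lineage factor NKX2-1 stayed between 2.35 and 2.92 CPM in overexpressing and between 0.628 and 1.59 CPM in wild type cells (log2 fold change 1.15, edgeR adjusted p = 0.12). The 8 listed epithelial genes summed to 7.44 to 9.06 CPM in overexpressing and 7.57 to 8.44 CPM in wild type cells. Of these, EPCAM, CDH1, CLDN4, CLDN7 and ELF3 stayed under 1 CPM in all 6 libraries. Over the 6 libraries CLDN3 lay at 0.560 to 1.42 CPM, ESRP1 at 1.69 to 3.76 CPM and MUC1 at 2.42 to 4.18 CPM. Summed kidney markers, relevant to HEK293T, lay at 14.9 to 16.1 CPM in overexpressing and 14.7 to 18.2 CPM in wild type cells. Most of this came from the marker gene WT1, at 10.8 to 11.5 CPM in overexpressing and 10.8 to 13.8 CPM in wild type cells. PAX8 lay at 2.96 to 4.53 and 3.63 to 4.29 CPM in the same order. PAX2, SIX2 and EMX2 stayed under 1 CPM, with LHX1 and CDH16 at 0. Summed fibroblast markers lay at 5.21 to 10.2 against 5.02 to 7.07 CPM, blood at 1.25 to 3.88 against 2.01 to 4.53 CPM, endothelium at 1.80 to 2.35 against 2.44 to 4.61 CPM and neuroendocrine markers at 2.57 to 3.03 against 1.95 to 3.97 CPM, each with the overexpressing range before the wild type one.

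KRT8, the type II keratin of simple epithelia, showed the lowest fold change of the 8 tested members. It stood at 68.7, 30.3 and 49.6 CPM with MTSS1 overexpressed, against 212, 135 and 147 CPM in wild type. The groups did not overlap, and the highest overexpressing library lay well below the lowest wild type one. The mean was 49.5 ± 19.2 CPM in overexpressing and 165 ± 41.2 CPM in wild type cells (SD, n = 3 each), a log2 fold change of -1.74 (SE 0.27), or 3.35-fold lower. In both groups library 1 held the highest level and library 2 the lowest, and the log2 ratios of libraries with neighbouring title numbers were -1.62, -2.16 and -1.56. In bulk RNA, fewer cells with the keratin and less of its RNA per cell cannot be told apart.

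KRT18, the type I partner of KRT8, had lower values in overexpressing cells by a smaller factor. It stood at 395, 223 and 278 CPM with MTSS1 overexpressed, against 637, 432 and 494 CPM in wild type. The groups did not overlap, but overexpressing library 1 came close to wild type library 2. Means were 299 ± 88.2 CPM in overexpressing and 521 ± 105.1 CPM in wild type cells (SD, n = 3 each), a log2 fold change of -0.80 (SE 0.20). Its libraries ranked as those of KRT8 did within each group, and over the 6 libraries log2 levels of the 2 genes had a Pearson correlation of 0.97, a value that includes the difference between the groups.

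The balance within this keratin pair differed as well. Per kilobase of transcript, KRT8 reached 0.141, 0.110 and 0.144 of the KRT18 level in the overexpressing libraries, against 0.269, 0.254 and 0.240 in the wild type libraries. All 3 overexpressing values lay below all 3 wild type values, and the mean ratio was 0.132 ± 0.0187 in overexpressing and 0.254 ± 0.0144 in wild type cells (SD, n = 3 each). The ratio depends on which transcript lengths are used, though these scale both groups alike. With all annotated exons it was 0.0637 to 0.0833 in overexpressing and 0.139 to 0.155 in wild type libraries. Reads counted on pseudogenes are not in the ratio and do not weigh on both groups alike. For KRT8 they came to 37.7% to 72.9% of its counts in overexpressing and 13.3% to 26.5% in wild type libraries. For KRT18 they came to 3.36% to 3.56%. A ratio with these reads added was not computed.

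KRT80, a type II keratin found in many epithelia, had similar levels in both groups. It stood at 88.9, 62.2 and 71.8 CPM with MTSS1 overexpressed, against 67.6, 68.4 and 63.2 CPM in wild type. The groups overlapped, and the spread came mostly from overexpressing library 1 (log2 fold change 0.16, SE 0.12). Of the type II keratin transcripts per kilobase, a share that is higher where KRT8 is lower, KRT80 made up 38.6% ± 3.20 in overexpressing against 15.5% ± 2.75 in wild type cells (SD, n = 3 each), and KRT8 made up 54.5% ± 8.44 against 82.2% ± 4.11. The summed ratio of type II to type I keratins, per length over all keratin genes, was 0.230 ± 0.0117 in overexpressing and 0.300 ± 0.0134 in wild type cells (SD, n = 3 each).

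**Figure D1:**
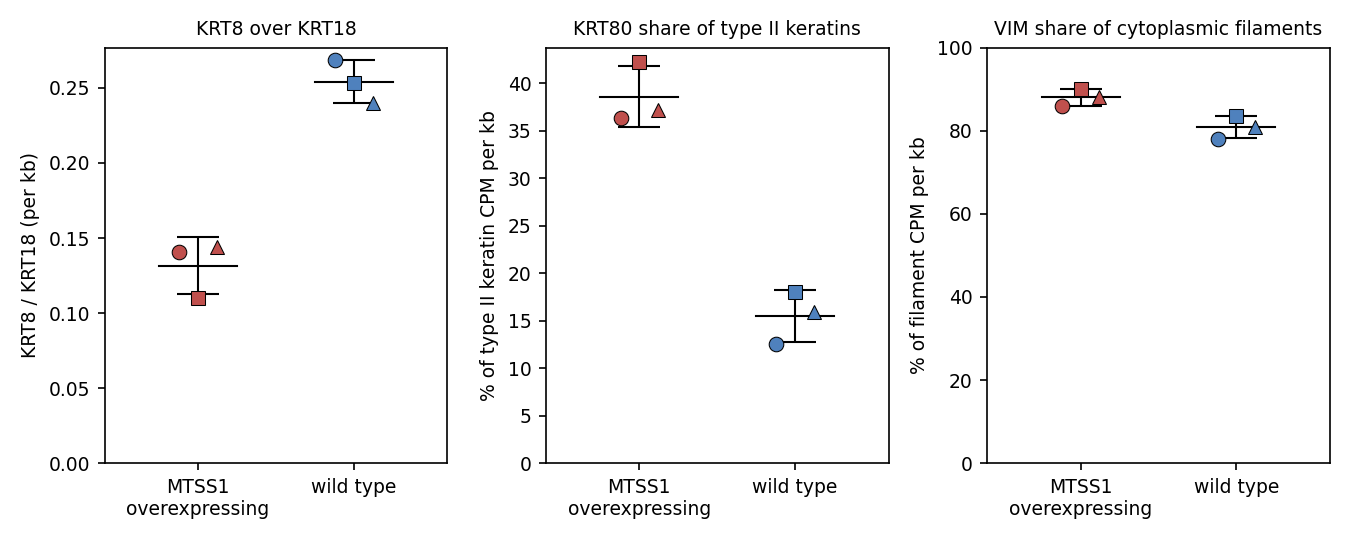
Ratio of KRT8 to KRT18 per kilobase (left), share of KRT80 in the type II keratins per kilobase (middle, percent) and share of VIM in all cytoplasmic filament transcripts per kilobase (right, percent), with 1 point per library, a horizontal line at the mean and bars of 1 SD. The KRT8 to KRT18 ratio was 0.132 in overexpressing and 0.254 in wild type cells, and the KRT80 share 38.6% and 15.5%. Pseudogene counts are not included.

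KRT7, a type II keratin used to mark lung adenocarcinoma in pathology, was scarce. It stood at 1.91, 2.00 and 1.40 CPM with MTSS1 overexpressed, against 1.11, 0.892 and 0.562 CPM in wild type, from 113 reads in overexpressing and 63 in wild type cells. The groups did not overlap, and the log2 fold change of 1.05 had the second largest SE of the members (0.38). KRT19, a type I keratin of simple epithelia, had 2 reads over the overexpressing libraries and 0 over the wild type libraries. KRT81, a hair keratin, had 1 read over the overexpressing and 0 over the wild type libraries. A count of 0 allows up to 3 counts, or 0.0396 CPM over the wild type libraries, so no fold is given for either gene, and a difference was not detectable at this depth. These limits cover counting error only.

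VIM was by far the most abundant member, and its level was nearly the same in both groups. It stood at 4802, 4726 and 4569 CPM with MTSS1 overexpressed, against 4469, 4462 and 4256 CPM in wild type. The groups did not overlap, yet the log2 fold change was 0.10 (SE 0.08). VIM lies on the short arm of chromosome 10, and the median log2 fold change of its 50 nearest tested genes was 0.33. Relative to those neighbours the sign of VIM turned, to -0.24.

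The type IV members differed in both directions. NEFH, the large neurofilament subunit, stood at 44.0, 40.3 and 51.5 CPM with MTSS1 overexpressed, against 28.6, 27.0 and 30.9 CPM in wild type. Every overexpressing library was above every wild type one (log2 fold change 0.65, SE 0.12; neighbour median 0.04). SYNM, which links filaments to adhesion sites in muscle, stood at 30.1, 28.7 and 29.7 CPM with MTSS1 overexpressed, against 44.6, 47.4 and 44.5 CPM in wild type. The replicates of SYNM were close together and the groups lay well apart (log2 fold change -0.63, SE 0.09). Its neighbours on chromosome 15 had a median log2 fold change of -0.34, and relative to them SYNM had a log2 fold change of -0.28.

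NES, which marks neural progenitors and co-assembles with vimentin, stood at 0.807, 0.499 and 0.960 CPM with MTSS1 overexpressed, against 1.27, 1.45 and 1.28 CPM in wild type. These levels rest on 48 reads in overexpressing and 102 in wild type cells, and the groups did not overlap (log2 fold change -0.83, SE 0.39). Its neighbours on chromosome 1 had a median of -0.29. The 4 chromosome 12 members that were tested lay among genes with medians between -0.03 and -0.02.

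Past the threshold of the fit over all genes (adjusted p under 0.05) were 3 of the 8 tested members, KRT8 and SYNM lower and NEFH higher, beside 4.28% of all 16091 tested genes (2.45% lower, 1.82% higher). CPM did not overlap between the groups for 7 of the 8, KRT80 being the exception, beside 25.5% of all tested genes. The members were picked on this contrast, so nothing is read from these counts. With libraries of neighbouring title numbers, which here carry the same library number, paired as a block, KRT7 and KRT18 joined, making 5 of 8 (2 higher, 3 lower) beside 22.7% of all tested genes (10.7% higher, 12% lower). The call of SYNM was lost relative to its neighbours and without both libraries numbered 1 (log2 fold change -0.66). The call of KRT8 was lost without overexpressing library 3 (-1.75), and that of NEFH without overexpressing library 3 (0.55), without wild type library 1, 2 or 3 (0.65, 0.61 and 0.70) and without both libraries numbered 1 (0.67). KRT18 was also past the threshold with no filter on low counts (-0.80), without overexpressing library 1 (-1.05) and without both libraries numbered 1 (-0.89).

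**Figure D2:**
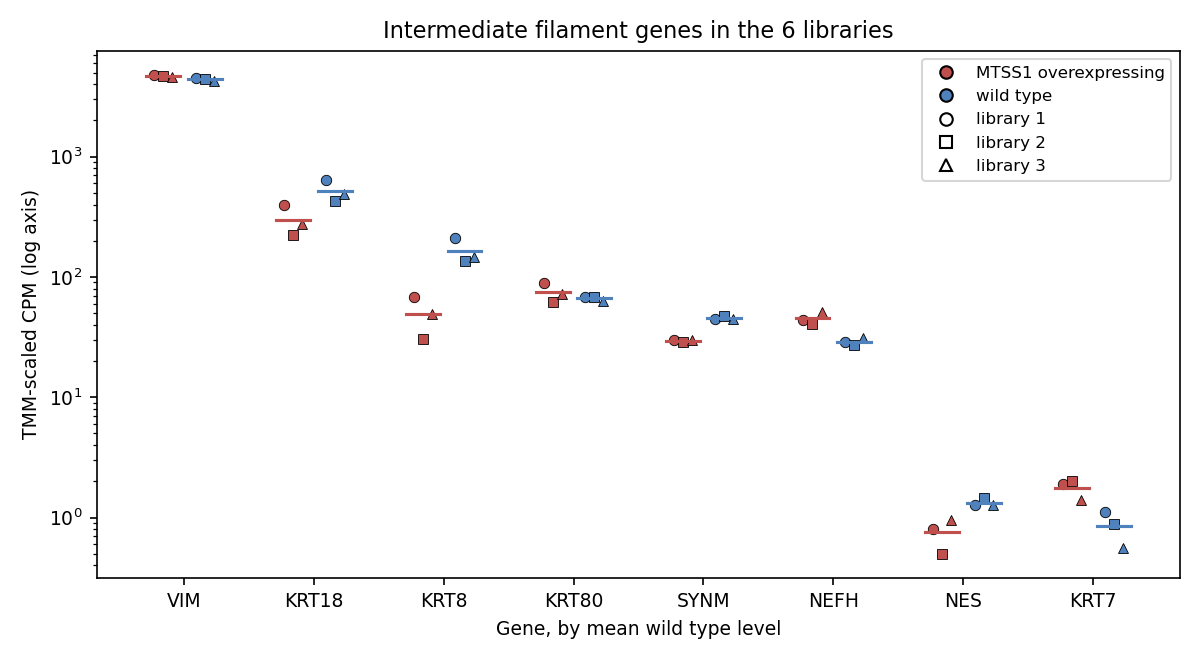
TMM-scaled CPM (log axis) of the 8 tested genes, ordered by mean wild type level, with MTSS1 overexpressing libraries (red) left of wild type libraries (blue), a marker shape per library number and a line at each mean. KRT8 averaged 49.5 CPM in overexpressing and 165 CPM in wild type cells, while VIM lay between 4256 and 4802 CPM in all libraries.

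**Figure D3:**
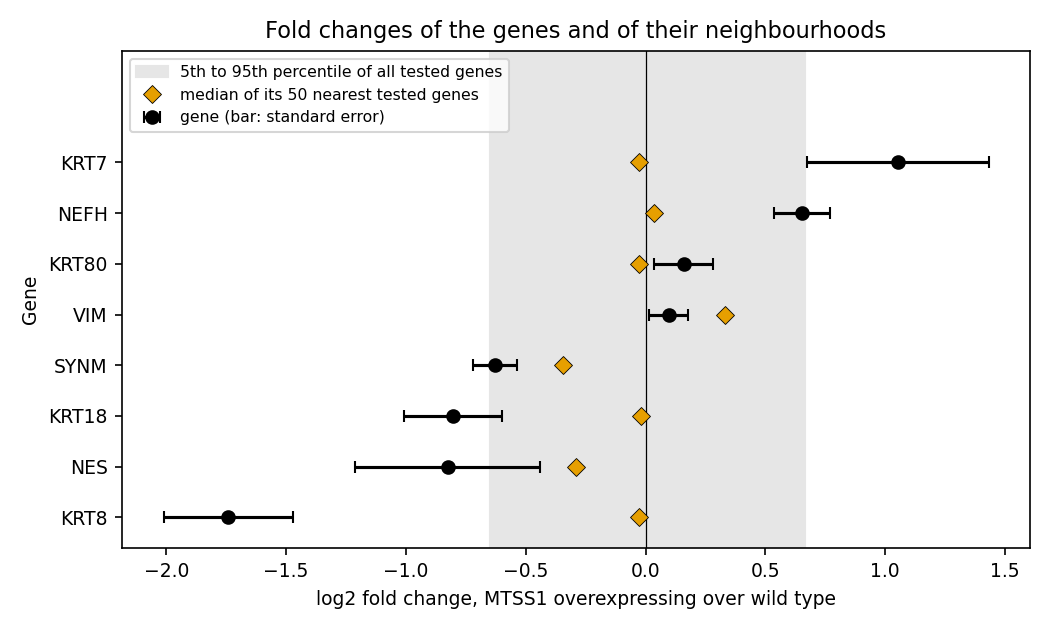
Log2 fold change, MTSS1 overexpressing over wild type, of the 8 tested genes (black, bars 1 SE), the median of the 50 nearest tested genes of each (orange) and the range from the 5th to the 95th percentile of all tested genes (grey, -0.65 to 0.66). The neighbours of KRT8 had a median of -0.03, and those of SYNM one of -0.34.

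Compared per kilobase of main transcript, the order of the members in overexpressing cells was VIM (2515 ± 63.5 CPM per kb), KRT18 (210.4 ± 62.1), KRT8 (28.2 ± 11.0), KRT80 (19.3 ± 3.51), NEFH (11.97 ± 1.51), SYNM (3.99 ± 0.0942), KRT7 (1.01 ± 0.184) and NES (0.136 ± 0.0422; SD, n = 3 each). The order in wild type cells was the same: VIM (2353 ± 64.9), KRT18 (367 ± 74.0), KRT8 (93.8 ± 23.5), KRT80 (17.2 ± 0.719), NEFH (7.62 ± 0.513), SYNM (6.16 ± 0.224), KRT7 (0.488 ± 0.158) and NES (0.240 ± 0.0188). In overexpressing cells the mean of KRT80 lay within the SD range of KRT8, while that of KRT8 lay outside the SD range of KRT80. The other neighbours in the order differed by more than their SDs. Over the 65 cytoplasmic filament genes of types I to IV, VIM made up 88.04% ± 2.11 of transcripts per length in overexpressing and 80.9% ± 2.70 in wild type cells. KRT18 made up 7.31% ± 1.87 against 12.5% ± 2.01, and KRT8 0.980% ± 0.348 against 3.20% ± 0.653. These shares sum to a fixed total, so the VIM share is higher where the keratins are lower.

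Reads of 50 bases cannot always be placed on 1 of these genes. Of all 50-base windows of the main KRT8 transcript (GENCODE release 29), 39.7% also occur in pseudogene transcripts of the annotation. For KRT18 this share was 35.1%, and a further part of its windows lies antisense to KRT8 transcripts. KRT81 shared 44.6% of its windows with other keratin genes, most of them with KRT86, while KRT80 shared 0.420% and NES 0%. VIM and SYNM shared 43.8% and 27.5% of their windows with annotated antisense transcripts on the opposite strand, which only strand-aware counting separates. The counts of the 67 KRT18 pseudogenes summed to 3.56%, 3.49% and 3.36% of KRT18 counts in the overexpressing libraries and 3.44%, 3.46% and 3.41% in the wild type libraries, nearly constant while KRT18 itself varied.

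The 51 KRT8 pseudogenes behaved differently. Their counts summed to 37.7%, 72.9% and 40.2% of KRT8 counts in the overexpressing libraries, against 13.3%, 26.5% and 19.7% in the wild type libraries. Most of these reads fell on 1 locus, the transcribed pseudogene KRT8P12 on chromosome 3, with 19.4 ± 2.97 CPM in overexpressing and 24.7 ± 3.49 CPM in wild type cells (SD, n = 3 each). KRT8P12 was chosen after its values were seen. The pseudogenes sharing most windows with KRT8 shared 23.2% down to 4.22% of them, and KRT8P12 was not among these. With all pseudogene counts added to their parent genes, KRT8 had a log2 fold change of -1.44 and KRT18 of -0.80. How many of the added reads came from the parent genes was not tested.

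Other filament genes, their partners and regulators were read as 7 lists. Over all tested genes, the share called was 4.28% by edgeR, 22.7% with the block, 7.34% by DESeq2 and 19.8% at an unadjusted edgeR p under 0.05, and each list's count stands beside these shares.

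Of the 49 other keratin genes, 25 had no read in any library and 5 had enough to be tested: KRT1, KRT5, KRT10, KRT14 and KRT15. None of the 5 passed edgeR's test, with 1 at an unadjusted p under 0.05 and 0 past the threshold in DESeq2 (1 lower with the block, beside 22.7%), and their median log2 fold change was 0.22 beside 0.00 over all tested genes. KRT15, a type I keratin of basal epithelial cells, stood at 7.78, 10.5 and 6.72 CPM with MTSS1 overexpressed and 14.1, 10.1 and 14.1 CPM in wild type (log2 fold change -0.61, edgeR adjusted p = 0.14; 0.043 with the block). KRT10, a type I keratin of the upper epidermis, averaged 10.9 ± 3.31 CPM in overexpressing and 11.5 ± 1.56 CPM in wild type cells (SD, n = 3 each; edgeR adjusted p = 0.91), and its sign turned without overexpressing library 1 or wild type library 3.

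The other 3 followed the library number and not the group. KRT1, a type II keratin of the upper epidermis, had 0, 145 and 95 counts in overexpressing libraries 1 to 3 and 0, 139 and 94 in wild type libraries 1 to 3. KRT5 of basal keratinocytes had 0, 53 and 25 counts in the overexpressing and 0, 39 and 36 in the wild type libraries, and its partner KRT14 had 0, 41 and 30 against 0, 39 and 16. Both libraries numbered 1 were thus empty of these keratins, where a count of 0 allows up to 0.220 CPM in the overexpressing and 0.159 CPM in the wild type library. Other genes of the skin did the same: the sweat peptide gene DCD had 0, 56 and 29 counts against 0, 39 and 29, the barrier gene FLG 0, 21 and 17 against 0, 22 and 18, and the desmosomal cadherin gene DSG1 0, 24 and 12 against 0, 15 and 12. A list of 12 epidermal genes, written after these values were seen, summed to 1, 395 and 256 counts in the overexpressing and 3, 351 and 246 in the wild type libraries. Some genes outside that list shared the pattern. The fibroblast marker COL1A2 had 0, 36 and 15 counts against 0, 28 and 16, and the blood marker LYZ 0, 34 and 24 against 1, 43 and 30. Other markers lacked it, such as MUC1 with 57, 63 and 101 against 67, 122 and 103 counts. Over all genes, 10 had at most 1 count over both libraries numbered 1 and at least 150 over the other 4. Of these, 5 were processed pseudogenes, and the protein-coding ones were KRT1, KRT5, DCD and TXNIP. Where these reads came from was not tested.

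**Figure D4:**
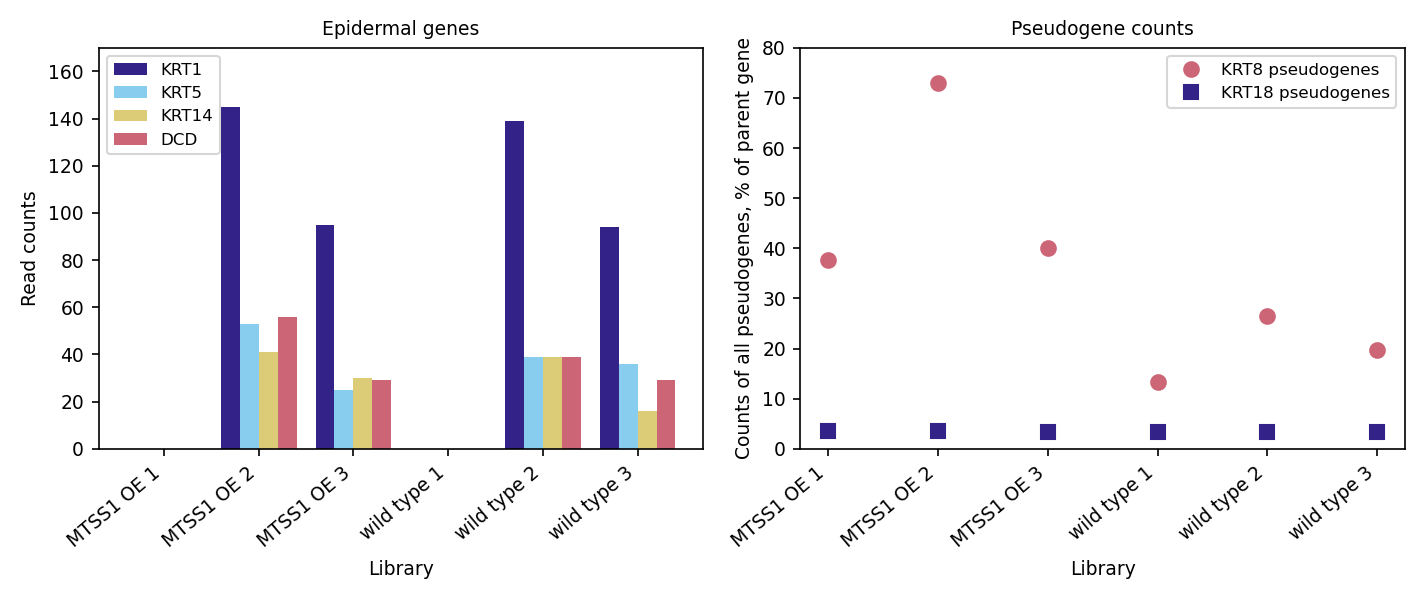
Read counts of the epidermal genes KRT1, KRT5, KRT14 and DCD in each library (left; bars start at 0; OE stands for overexpressing), and counts of all KRT8 and KRT18 pseudogenes as a percentage of the parent gene (right). KRT1 had 95 to 145 counts in overexpressing libraries 2 and 3, 94 to 139 in wild type libraries 2 and 3 and 0 in both libraries numbered 1, and the KRT18 pseudogenes stayed between 3.36% and 3.56%.

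Among 10 tested genes of the remaining filament types, lamins included, 0 rose and 1 fell by edgeR, beside 4.28% of all genes (2 at an unadjusted p under 0.05, beside 19.8%; 0 and 1 by DESeq2, beside 7.34%; 1 and 2 with the block, beside 22.7%), and the median was 0.07 on the log2 scale. LMNA, encoding the lamin A and C filaments under the nuclear envelope (chr1:156082573-156140089), stood at 396, 389 and 332 CPM with MTSS1 overexpressed, against 597, 638 and 537 CPM in wild type, and it fell by 0.67 on the log2 scale (SE 0.10; edgeR adjusted p = 0.0097). It lies 528.7 kb from NES, among neighbours with a median of -0.27, and relative to them it did not pass (-0.39, edgeR adjusted p = 0.092). LMNA passed in all 6 fits without 1 library and missed without both libraries numbered 1 (edgeR adjusted p = 0.055). The B-type lamin genes LMNB1 and LMNB2 missed the threshold at 0.18 and 0.10 on the log2 scale (edgeR adjusted p = 0.31 and 0.63; 0.014 for LMNB1 with the block). INA, a neurofilament-like gene, averaged 175 ± 4.02 CPM in overexpressing and 166 ± 25.1 CPM in wild type cells, and NEFM and NEFL, the smaller neurofilament subunits, had log2 fold changes of 0.06 and 0.04. PRPH, encoding peripherin, and IFFO2 had log2 fold changes of 1.13 and -0.25 (edgeR adjusted p = 0.26 and 0.24; 0.032 for IFFO2 with the block). IFFO2 was at -0.16 without overexpressing library 2, and PRPH averaged 0.580 ± 0.193 CPM in overexpressing and 0.268 ± 0.0701 CPM in wild type cells.

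Of 10 tested plakins and linkers, which tie filaments to junctions, actin and the nucleus, 1 rose and 0 fell by edgeR, beside 4.28% of all genes (3 at an unadjusted p under 0.05, beside 19.8%; 1 higher and 1 lower by DESeq2, beside 7.34%; 1 and 3 with the block, beside 22.7%), and the median was -0.03 on the log2 scale. SYNE2, encoding a large nesprin of the outer nuclear membrane (chr14:63852983-64226433), stood at 119, 131 and 131 CPM with MTSS1 overexpressed, against 85.1, 80.7 and 87.8 CPM in wild type (log2 fold change 0.59, SE 0.08, edgeR adjusted p = 0.0059). It passed in all 6 fits without 1 library, without both libraries numbered 1 (edgeR adjusted p = 0.040) and relative to its neighbours (edgeR adjusted p = 0.0077). PLEC, encoding plectin, was at -0.36 on the log2 scale (edgeR adjusted p = 0.16; 3.2e-04 with the block), and PPL, encoding periplakin, at -0.48 (edgeR adjusted p = 0.21; 0.0072 with the block) and at -0.20 without wild type library 2. By DESeq2 PLEC passed (adjusted p = 0.0497). SYNE1, another nesprin gene, was at -0.22 (edgeR adjusted p = 0.30), and at -0.13 without wild type library 2 and -0.14 without overexpressing library 2.

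Of 14 tested genes of desmosomes and hemidesmosomes, the junctions on which keratins end, 0 rose and 1 fell by edgeR, beside 4.28% of all genes (3 at an unadjusted p under 0.05, beside 19.8%; 0 and 1 by DESeq2, beside 7.34%; 1 and 4 with the block, beside 22.7%), and the median was -0.04 on the log2 scale. ITGA6, the laminin receptor subunit of hemidesmosomes (chr2:172427354-172506282), stood at 501, 366 and 496 CPM with MTSS1 overexpressed, against 835, 625 and 855 CPM in wild type (log2 fold change -0.76, SE 0.15, edgeR adjusted p = 0.027). This held relative to its neighbours (edgeR adjusted p = 0.026) and without overexpressing library 1 or wild type library 2. It was lost without overexpressing library 2 or 3 or wild type library 1 or 3 (edgeR adjusted p = 0.075, 0.069, 0.065 and 0.10) and without both libraries numbered 1 (edgeR adjusted p = 0.11). Its partner ITGB4 and the hemidesmosomal collagen COL17A1 did not pass, with log2 fold changes of 0.35 and -0.71 (edgeR adjusted p = 0.23 and 0.22; 0.045 and 0.0012 with the block). Both had far lower levels than ITGA6. ITGB4 averaged 16.8 CPM in overexpressing and 13.1 CPM in wild type cells, and COL17A1 9.66 and 15.8 CPM. Without wild type library 3 ITGB4 was at 0.22, and without overexpressing library 2 COL17A1 was at -0.45. DSG2, the desmoglein of simple epithelia, had a log2 fold change of -0.13.

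Of 26 tested kinases, chaperones and turnover factors of filaments, 1 rose and 1 fell by edgeR, beside 4.28% of all genes (8 at an unadjusted p under 0.05, beside 19.8%; 2 and 2 by DESeq2, beside 7.34%; 3 and 8 with the block, beside 22.7%), and the median was -0.10 on the log2 scale. AURKB, a mitotic kinase that phosphorylates vimentin, stood at 105, 104 and 90.7 CPM with MTSS1 overexpressed, against 69.7, 65.5 and 67.0 CPM in wild type (log2 fold change 0.57, edgeR adjusted p = 0.0098). PAK1, another vimentin kinase, stood at 44.5, 48.3 and 44.8 CPM with MTSS1 overexpressed, against 66.4, 66.2 and 66.4 CPM in wild type (log2 fold change -0.53, edgeR adjusted p = 0.010). The neighbours of AURKB had a median of 0.29 and those of PAK1 one of -0.32, and relative to them neither passed (edgeR adjusted p = 0.16 and 0.25). The call of AURKB was lost without wild type library 3 (edgeR adjusted p = 0.057) and that of PAK1 without overexpressing library 3 or wild type library 3 (edgeR adjusted p = 0.054 and 0.058). Without both libraries numbered 1 neither passed (edgeR adjusted p = 0.084 and 0.11). DNAJB6, a co-chaperone that binds KRT18, and YWHAQ, an adaptor of the family that binds phosphorylated keratin, had log2 fold changes of 0.37 and -0.37 (edgeR adjusted p = 0.060 and 0.062; 9.4e-04 and 5.6e-04 with the block). By DESeq2 both passed (adjusted p = 0.0098 and 0.0089), and by edgeR DNAJB6 passed without overexpressing library 2 and YWHAQ without wild type library 2 (edgeR adjusted p = 0.049 and 0.035). Relative to its neighbours DNAJB6 was at 0.13 on the log2 scale (edgeR adjusted p = 0.57).

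Of 18 tested epithelial and AP-1 transcription factors, which include known regulators of keratin genes, 0 passed edgeR's test and 0 that of DESeq2, with 2 at an unadjusted p under 0.05, beside 19.8% of all genes. With the block 2 were higher and 1 lower, beside 22.7%, and the median log2 fold change was -0.04. The smallest adjusted p among them were those of GRHL1 (log2 fold change 0.50, edgeR adjusted p = 0.24) and KLF4 (-0.35, edgeR adjusted p = 0.24; 0.025 with the block). FOSL2 and ESRP1 had log2 fold changes of 0.25 and 0.51 (edgeR adjusted p = 0.38 and 0.47; 0.047 for FOSL2 with the block). Single libraries moved these values: without wild type library 2 KLF4 was at -0.20 and FOSL2 at 0.087, and without overexpressing library 2 ESRP1 was at 0.13. Of 7 tested mesenchymal transcription factors 0 rose and 1 fell by edgeR, beside 4.28% of all genes, and the median was 0.03 on the log2 scale. At an unadjusted p under 0.05 there was 1, beside 19.8%. By DESeq2 0 rose and 1 fell, beside 7.34%, and with the block 0 and 1, beside 22.7%. The gene that fell was PRRX1, a mesenchymal homeobox factor, with 23.9 ± 1.09 CPM in overexpressing and 33.8 ± 1.32 CPM in wild type cells (SD, n = 3 each; edgeR adjusted p = 0.027), a call lost in all 6 fits without 1 library (highest edgeR adjusted p 0.11) and relative to its neighbours. TCF4, TWIST1 and TWIST2 did not pass, with log2 fold changes of 0.16, 0.19 and -0.16. TWIST1 was at 0.10 without overexpressing library 3 and 0.12 without wild type library 3, and the sign of TWIST2 turned without wild type library 3, to 0.068. In all, 6 of the 90 tested listed genes passed, 2 higher and 4 lower, beside 4.28% of all tested genes. With the block 8 were higher and 20 lower, beside 10.7% and 12%. The median log2 fold change of the 90 was -0.04 beside 0.00.

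**Figure D5:**
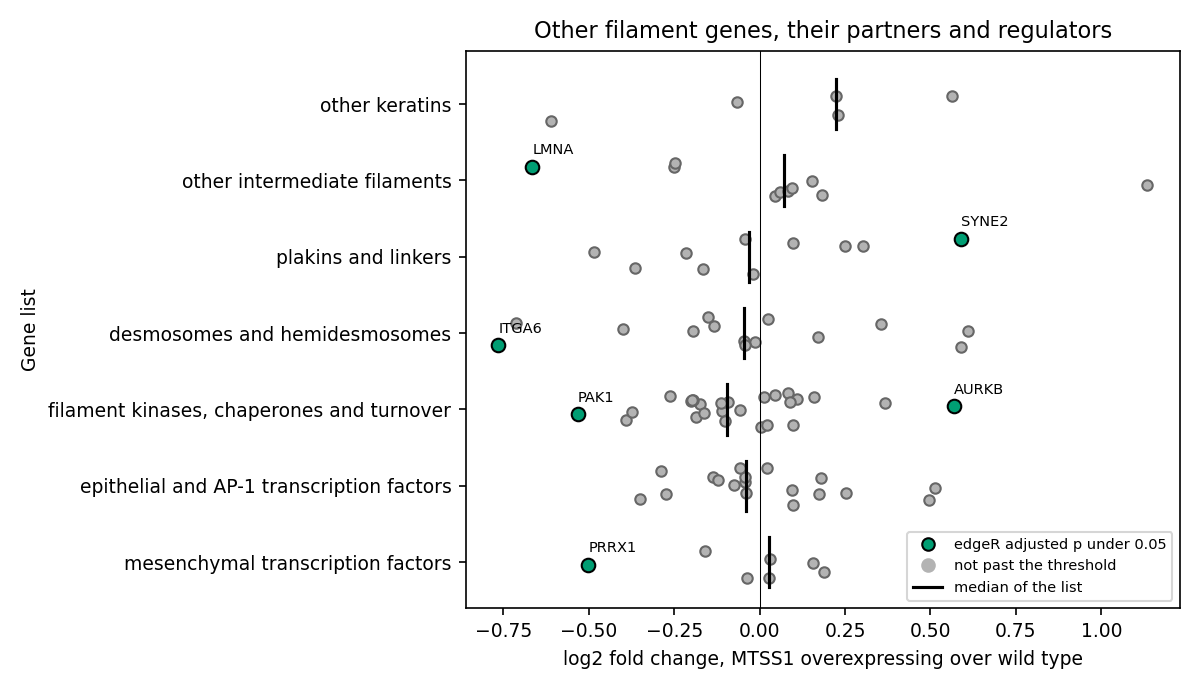
Log2 fold change, MTSS1 overexpressing over wild type, of the 90 tested genes of the 7 lists, with genes past the threshold in green and named, the others in grey and a black line at each list's median. SYNE2 and AURKB were higher, and LMNA, ITGA6, PAK1 and PRRX1 lower.

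Among genes averaging 5 CPM or more, those whose log2 CPM over the 6 libraries was most like that of KRT8 were SMG5 (Pearson correlation 0.9991), PAQR7 (0.9945), MTRF1L (0.9931), PPME1 (0.9923) and ABHD2 (0.9923). SMG5 stood at 210.4, 172 and 192 CPM with MTSS1 overexpressed and 266, 243 and 246 CPM in wild type, a log2 fold change of -0.40. These correlations over 6 libraries include both the group and the library number, and they were picked as the highest of all genes compared.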

How the data were processed

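The deposited table holds read counts for each Ensembl gene, whole numbers that were not normalized. Per the submitters' processing notes, bcl2fastq, HISAT2 2.1.0, HTSeq and GRCh38 were used; the annotation release and strand setting were not given in the sources used here. Per the labels' protocols, poly(A) libraries were made with a directional kit and read as single reads of 50 cycles. Symbols came from a name table and, for 486 identifiers, from GENCODE release 29, which also gave coordinates, transcripts and lengths. The test was that of edgeR 4.0.16, run in R 4.3.3. It used TMM, filterByExpr and a two-sided quasi-likelihood test, with Benjamini-Hochberg over all 16091 genes and a threshold of 0.05. On simulated counts it recovered 191 of 200 genes changed by 1 on the log2 scale, with 11 false calls. The simulated libraries were drawn independently with the same variation for all genes, so this gives no error rate for these data. The biological coefficient of variation was 0.162. SE is the log2 fold change over the square root of F. Since nothing says that replicates were separate cultures, the spread behind each p-value may be technical.

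The members, the gene lists and the tests were chosen with earlier results of these data known. Named genes are the members, up to 4 genes per list by smallest adjusted p and the 5 genes most like KRT8. LMNB2, INA, NEFM, NEFL, KRT1, DCD, FLG, DSG1, TXNIP, KRT8P12 and the cell type markers are named outside this rule. They were chosen after their values were seen or, for the markers, as a check of the cells. Library titles hold neighbouring numbers in 3 pairs of 1 overexpressing and 1 wild type library (3 and 2, 10 and 9, 13 and 12), named libraries 1, 2 and 3 here in order of deposit; the labels do not say what a pair shares. Deviations from group means correlated at 0.70, 0.42 and 0.48 within these pairs, so the pairs were used as a block in an alternative fit. Between other libraries of the 2 groups they correlated at -0.41 to -0.02. Deviations within a group cancel out, so positive values within pairs bring negative ones between others. The neighbour offset subtracts the median log2 fold change of the 50 nearest tested genes. Alternatives were RLE scaling, DESeq2 1.42.0, no count filter, each library left out, the block, the offset and, chosen after seeing the data, both libraries numbered 1 left out and pseudogene counts added. Replicates of a group differed by more than counting noise (chi-square per degree of freedom 14.7 to 28.0). Sequences of these genes are not reported here.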

Additional observations from a re-analysis of the deposited data

How the results depend on the processing

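Over all genes 688 passed the threshold, against 1188 with DESeq2, 1489 with no filter on low counts, 3651 with the replicate block, 338 with the neighbour offset and 132 without both libraries numbered 1. With 1 library left out the number lay between 145 and 346. The 688 and the counts with the block and the offset are out of 16091 tested genes. The count with DESeq2 is out of 16190 and that with no filter out of 28676. With 1 library left out 16493 to 16587 genes were tested, and 16359 without both libraries numbered 1. The share called was 4.28%, against 7.34% with DESeq2 and 22.7% with the block. Of the 8 tested members 3 passed, also 3 with RLE scaling, DESeq2 or pseudogene counts added. With no filter 4 of 10 passed. It was 5 with the replicate block, 2 with the neighbour offset and 2 without both libraries numbered 1. With 1 library left out between 1 and 4 passed (1 without overexpressing library 3). Of 90 tested listed genes 6 passed, against 9 with DESeq2, 13 of 127 with no filter, 28 with the replicate block and 2 with the neighbour offset. Without both libraries numbered 1 the number was 1, and with 1 library left out it lay between 2 and 6. The cause of these differences was not tested. The sign of VIM turned with the neighbour offset, to -0.24. The other 7 tested members kept their sign in all 13 alternatives, with log2 fold changes of -2.04 to -1.44 for KRT8, -1.05 to -0.63 for KRT18, 0.82 to 1.26 for KRT7, 0.02 to 0.28 for KRT80, 0.55 to 0.74 for NEFH, -0.66 to -0.28 for SYNM and -1.06 to -0.54 for NES. KRT8 was past the threshold in 12 of the 13, SYNM in 11, NEFH in 8, KRT18 in 4, KRT7 in 1, and VIM, NES and KRT80 in 0 (edgeR or DESeq2 as named). These tallies come from refits of the same libraries and members picked on this contrast, so nothing is read from them. With no filter the call of KRT18 was gained at an unchanged log2 fold change of -0.80, and the reason was not tested. The few reads of NES, KRT7, KRT19 and KRT81 limit what can be said of them.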
